A study of Mus musculus with 6 samples.

Results

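The genes described here are 32 named genes of the oligodendrocyte lineage and of myelin. The rule for them is a list of names and uses no measured value, and they were taken with every probe that carries one of these names, which gave 48 probes. They stand among 29608 gene names and 39429 probes on the array. All 32 genes and all 48 probes were well above background on all 6 arrays, and none was lost to the filter on dim probes. The samples were total RNA from the brains of male mice on the C57BL/6N background. The knockout group held 3 samples labelled as lacking Pla2g2e, a secreted phospholipase A2, and the wild-type group held 3 samples. All 6 titles read sham, while the treatment text attached to every sample describes an occlusion of the middle cerebral artery for 60 min, and the titles were followed here. The labels do not give the age, the brain region or hemisphere, the deleted part of the gene, or whether each sample was a separate animal. The p-values therefore take in no more than the scatter among these 6 samples, and that scatter may be technical.

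Oligodendrocytes make the myelin sheath that insulates axons in the brain. They arise from dividing precursor cells, which carry the surface proteins NG2 and PDGF receptor alpha, and pass through a short premyelinating stage before they switch on the genes of the compact sheath. The factors SOX10, OLIG1, OLIG2 and NKX2-2 drive these steps. Myelin is far denser in white matter tracts than in grey matter. In bulk tissue of this kind, fewer oligodendrocytes and less RNA per oligodendrocyte cannot be told apart. The members were sorted by these roles into 21 genes of mature oligodendrocytes and myelin, 3 of newly formed oligodendrocytes, 4 lineage factors and 4 genes of precursor cells.

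Levels are given as the log2 of the processed signal minus the 75th percentile of the same array, so that 0 is the signal at that percentile and a step of 1 is a doubling. Each gene is read from its brightest tested probe unless another is named, and levels are not comparable between probes. On each array 82.0% to 85.3% of the spots passed the scanner software's test for signal well above background, and saturation was seen in 0 spots. The median coefficient of variation of 399 probes printed 10 times was 4.22% to 5.24% within an array. Knockout array 1 and all 3 wild-type arrays were on one slide, and knockout arrays 2 and 3 on another, so 1 knockout array can be set against wild type within a slide. The brighter of the probes for Pla2g2e itself was dim, at -7.11, -7.94 and -7.90 in knockout arrays 1 to 3, against -7.14, -7.31 and -6.73 in wild-type arrays 1 to 3. It counted as well above background on all 6 arrays, and the groups overlapped. The other probe, dimmer still, read -8.47, -8.51 and -8.45 in knockout arrays 1 to 3, against -8.55, -8.65 and -9.20 in wild-type arrays 1 to 3, and was well above background on 3 knockout and 2 wild-type arrays. Each knockout array was thus slightly above each wild-type array there. Since the deleted part is not given, neither probe checks the labels.

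Most of these genes were highest and lowest on the same few arrays, and the low arrays came from both genotypes. Wild-type array 2 was the highest of the 6 arrays for 29 of the 32 members, and knockout array 2 or wild-type array 3 was the lowest for 25 of them. Over all genes measured on every array, wild-type array 2 was the highest for 16.3%, and knockout array 2 or wild-type array 3 the lowest for 39.9%. The median of the 21 mature genes, relative to the mean of the wild-type arrays, was 0.03, -0.61 and -0.16 in knockout arrays 1 to 3, against -0.07, 0.47 and -0.46 in wild-type arrays 1 to 3. The 2 lowest values thus lay one in each genotype. The median of the 4 precursor genes was -0.02, 0.06 and -0.04 in knockout arrays 1 to 3, against -0.11, 0.14 and -0.02 in wild-type arrays 1 to 3, so it moved far less between the same samples.

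**Figure D1:**
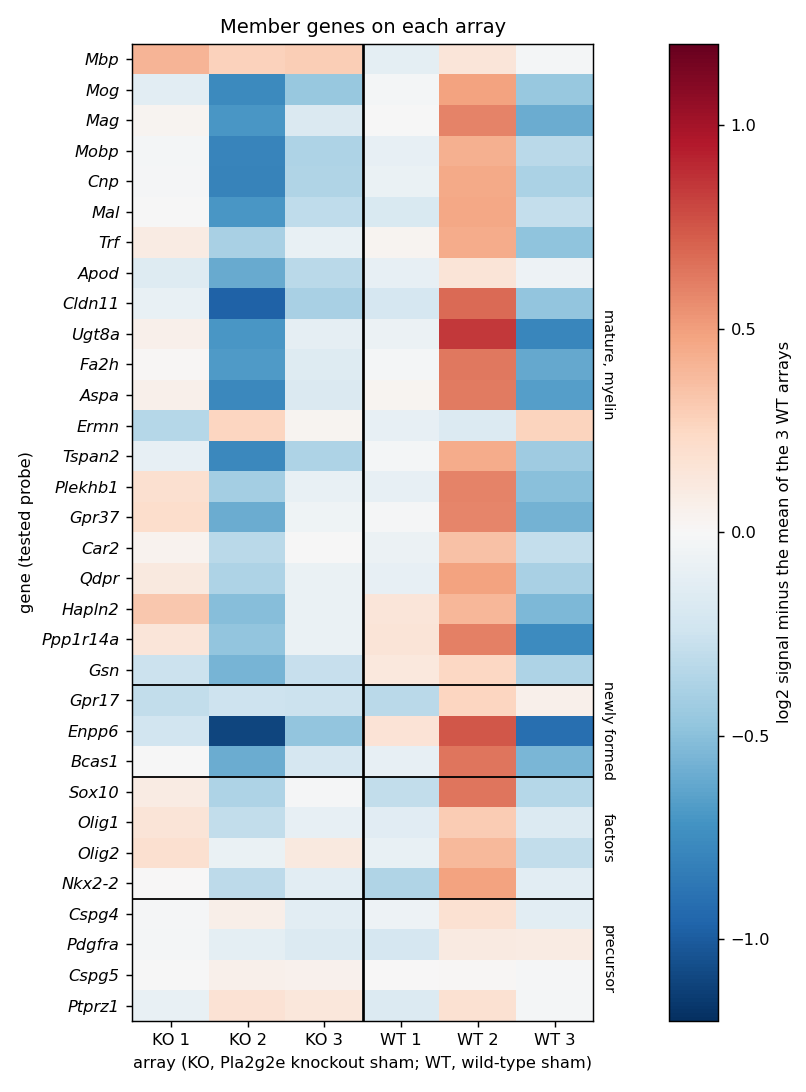
Log2 signal of each of the 32 members on each array, as a difference from the mean of the 3 wild-type arrays (colour), with knockout arrays on the left, wild-type arrays on the right, and genes in rows grouped by role. Wild-type array 2 is the highest array for 29 of 32 members, and knockout array 2 or wild-type array 3 the lowest for 25 of 32.

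No member passed an adjusted p of 0.05 in limma with Benjamini-Hochberg adjustment over 22578 genes. The share of all genes that passed was 0%, so this count does not set the members apart. At an unadjusted p under 0.05, 1 member was higher in the knockout (Mbp) and 1 was lower (Apod). The shares over all genes were 3.1% higher and 9.35% lower, and 12.4% in either direction. The same 2 genes were the only members whose knockout and wild-type arrays did not overlap, against 7.73% of all genes without overlap and higher, 12.2% without overlap and lower, and 19.9% without overlap in either direction. The difference was below 0 for 28 of the 32 members, against 53.7% of all genes. The median difference was -0.15 over the members and -0.01 over all genes. That negative median was not there on every subset of arrays. It was 0.00 on the slide that holds both genotypes and 0.05 without wild-type array 2, but -0.38 without wild-type array 3.

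**Figure D2:**
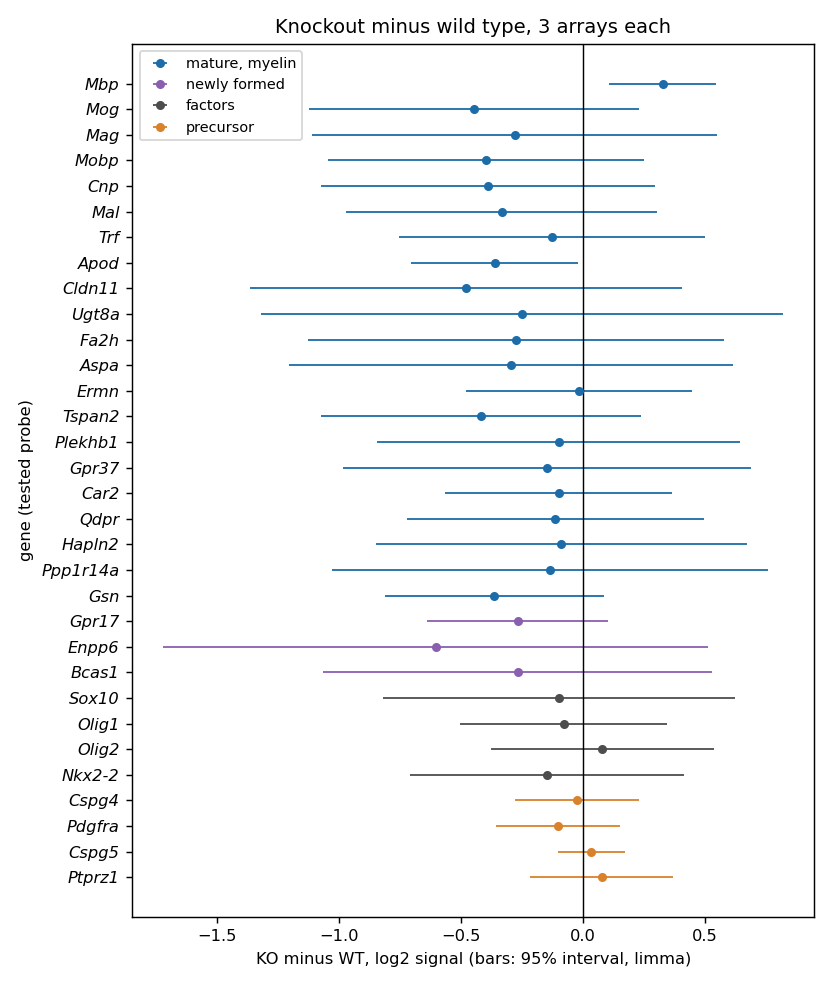
Difference between the 3 knockout and the 3 wild-type arrays for each member, in log2 signal, with the 95% interval from limma. Only Mbp (0.33) and Apod (-0.36) have an interval that leaves out 0 before adjustment for the number of genes.

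Most genes for the proteins of the sheath followed this pattern. Mog, myelin oligodendrocyte glycoprotein on the outer face of the sheath, read -0.77, -1.41 and -1.09 in knockout arrays 1 to 3, against -0.67, -0.16 and -1.10 in wild-type arrays 1 to 3. The lowest wild-type array lay within the knockout values. The difference was -0.45 (SE 0.28, limma with Benjamini-Hochberg adjusted p = 0.536). Mag, myelin-associated glycoprotein on the inner face that meets the axon, read 2.89, 2.17 and 2.69 in knockout arrays 1 to 3, against 2.86, 3.46 and 2.27 in wild-type arrays 1 to 3. Here too knockout array 2 and wild-type array 3 were the low ones. Mobp, a protein of the major dense line of compact myelin, averaged 2.67 ± 0.38 in knockout and 3.07 ± 0.39 in wild-type samples (SD, n = 3 each). Its single arrays were 3.04, 2.28 and 2.70 in the knockout, against 2.97, 3.50 and 2.75 in the wild type. The order of the arrays was again set by knockout array 2 at the bottom and wild-type array 2 at the top. Cnp, the phosphodiesterase of non-compact myelin, read 2.96, 2.17 and 2.61 in knockout arrays 1 to 3, against 2.89, 3.42 and 2.59 in wild-type arrays 1 to 3, with overlapping groups. The differences of Mag, Mobp and Cnp were -0.28, -0.40 and -0.39, each about as large as the SD within a group or smaller.

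Cldn11, the tight junction claudin of the sheath, had the largest negative difference among the mature genes, -0.48 with a 95% interval of -1.37 to 0.40. Its levels were 2.73, 1.85 and 2.43 in knockout arrays 1 to 3, against 2.62, 3.49 and 2.35 in wild-type arrays 1 to 3, and only wild-type array 2 stood above every knockout array. Tspan2, a tetraspanin of myelinating cells, differed by -0.42 (SE 0.27). Mal, a proteolipid that sorts myelin membrane, differed by -0.33 (SE 0.26). In these 7 sheath genes, Mog to Tspan2, wild-type array 2 was the highest array and knockout array 2 the lowest without exception.

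Among the promoters in the RefSeq table of GRCm38.p6, 23 of the 32 members had an entry, with 29 windows of 250 bases before the start. These windows are shown because members moved together between arrays, and the core sequence bound by SOX factors, ACAAAG or its complement CTTTGT, was searched on both strands. It was in 7 of the 29 member windows (24.1%), against 16.5% of 32851 windows of the same length. Some genes have several windows, and those of Mag partly overlap, so windows are not separate counts. By gene, 6 of 23 members held the core, all of them mature, against 5015 of 27025 genes. Of the 3 precursor windows, 0 held it. The variant ACAATG, also searched on both strands, was in 13.8% of the member windows and 10.7% of all windows. The E-box CANNTG, the core bound by OLIG factors and many others, was in 62.1% of the member windows and 66.2% of all windows. Of ACAAAG or its complement, Mobp held 6 copies, none overlapping another, and Cnp 1. Both windows lie on the plus strand, at chr9:120149492-120149741 for Mobp and chr11:100574689-100574938 for Cnp. Capitals mark ACAAAG or CTTTGT, not the E-box. A match in these letters is a description and does not show binding. Its part in how members moved between arrays was not tested.
Mobp: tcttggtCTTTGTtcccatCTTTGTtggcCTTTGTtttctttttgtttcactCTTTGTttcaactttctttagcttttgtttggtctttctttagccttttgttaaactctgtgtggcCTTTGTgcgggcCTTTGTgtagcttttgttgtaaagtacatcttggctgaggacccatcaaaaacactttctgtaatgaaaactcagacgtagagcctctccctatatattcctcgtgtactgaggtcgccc
Cnp: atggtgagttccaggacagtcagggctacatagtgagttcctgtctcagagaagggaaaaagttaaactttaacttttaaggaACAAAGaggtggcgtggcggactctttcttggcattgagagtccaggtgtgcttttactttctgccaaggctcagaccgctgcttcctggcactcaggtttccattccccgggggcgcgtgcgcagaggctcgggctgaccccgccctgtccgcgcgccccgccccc

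Ermn, ermin, a cytoskeletal protein of the mature oligodendrocyte, departed from the other mature genes on one of its probes. Its brighter probe, at chr2:57900470-57900529 on the minus strand of mm9, the build of the files, read 3.62, 4.22 and 3.99 in knockout arrays 1 to 3, against 3.86, 3.79 and 4.23 in wild-type arrays 1 to 3. This is close to the reverse of the mature genes, with knockout array 1 lowest and wild-type array 3 highest. Its other probe, at chr2:57897554-57897613, read 2.22, 1.64 and 2.02 in knockout arrays 1 to 3, against 1.98, 2.72 and 1.23 in wild-type arrays 1 to 3, and followed the mature genes. Both probes gave a difference of -0.02, with SE 0.19 and 0.38. The brighter probe is printed whole because it carries a run of 7 GAA triplets, 21 bases, in capitals, and the first 30 bases of the other are given beside it with CTAC repeats in capitals.
Ermn brighter probe: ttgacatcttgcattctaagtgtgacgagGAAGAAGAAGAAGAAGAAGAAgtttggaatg
Ermn other probe: CTACctatcatCTACCTACCTACctgctgt

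The run was looked for on the array after these values had been seen. It was found in 38 other probes, of which 37 were well above background on all 6 arrays, and 26 of those 37 carry only a probe ID as their name. Relative to the mean of the wild-type arrays, the median of the 37 was -0.34, 0.22 and 0.02 in knockout arrays 1 to 3, against -0.04, -0.15 and 0.20 in wild-type arrays 1 to 3. The brighter Ermn probe gave -0.34, 0.26 and 0.03 in knockout arrays 1 to 3, against -0.10, -0.17 and 0.27 in wild-type arrays 1 to 3. Knockout array 1 was the lowest array for 37 of the 37 probes, and the highest was knockout array 2 for 23 and wild-type array 3 for 14. What the brighter Ermn probe shares with them besides the run was not tested.

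Mbp, myelin basic protein, which binds the cytoplasmic faces of the membrane together, was the only mature gene with a difference above 0. Its brightest probe read 3.47, 3.34 and 3.36 in knockout arrays 1 to 3, against 2.94, 3.21 and 3.03 in wild-type arrays 1 to 3. Every knockout array was above every wild-type array, and the difference was 0.33 (SE 0.09, 1.25-fold). The unadjusted p was 0.0108 and the limma p after Benjamini-Hochberg adjustment was 0.301, so the call did not hold over all genes. Within the slide that holds both genotypes the difference was 0.41. Its sign was fixed, since the groups do not overlap, so it adds no support.

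The probes of Mbp disagreed as well. The probe above lies at chr18:82727929-82727988 on the plus strand. A dim probe at chr18:82691469-82691528 read -2.14, -2.07 and -2.22 in knockout arrays 1 to 3, against -2.62, -2.30 and -2.38 in wild-type arrays 1 to 3, again without overlap and higher (0.29, SE 0.10). The third probe, whose coordinates run from 82742266 to 82744570, read 1.78, 1.01 and 1.44 in knockout arrays 1 to 3, against 1.82, 1.91 and 1.03 in wild-type arrays 1 to 3. It was low in knockout array 2 and wild-type array 3, as the other myelin genes were, and its difference was -0.18 (SE 0.30). A mean over the 3 probes gave 0.15. Mbp is known for many transcripts from several start sites, and which transcripts each probe reads was not determined here.

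**Figure D3:**
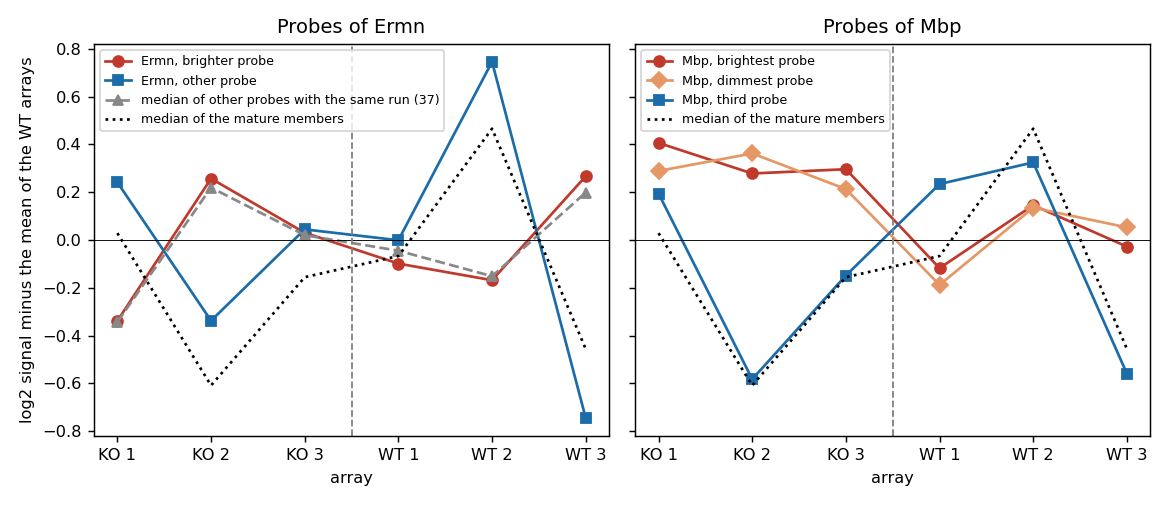
Each probe of Ermn (left) and of Mbp (right) on the 6 arrays, in log2 signal minus the mean of the wild-type arrays, with the median of the mature members as a dotted line and that of the 37 other probes with the GAA run as a dashed grey line. Lines only join points. The brighter Ermn probe and 2 of the 3 Mbp probes depart from the mature median, and the remaining probe of each gene follows it.

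The genes that make or move the lipids of myelin kept to the mature pattern. Ugt8a, which makes galactosylceramide, the chief glycolipid of myelin, read -1.13, -1.89 and -1.30 in knockout arrays 1 to 3, against -1.25, -0.34 and -1.97 in wild-type arrays 1 to 3. The lowest and the highest array were both wild type, and the SD was 0.40 in the knockout and 0.82 in the wild type. Fa2h, which hydroxylates the fatty acids of those lipids, read 1.35, 0.66 and 1.18 in knockout arrays 1 to 3, against 1.32, 1.98 and 0.72 in wild-type arrays 1 to 3. The groups overlapped, and the difference was -0.27 (SE 0.35). Aspa, which frees acetate for lipid synthesis from N-acetylaspartate, averaged -0.72 ± 0.43 in knockout and -0.42 ± 0.64 in wild-type samples (SD, n = 3 each). For these 3 genes the limma p adjusted by Benjamini-Hochberg lay between 0.756 and 0.831.

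Apod, a lipid carrier of the lipocalin family made by oligodendrocytes and other glia, was the member that was lower without overlap. It read 4.71, 4.25 and 4.54 in knockout arrays 1 to 3, against 4.77, 5.02 and 4.80 in wild-type arrays 1 to 3. The difference was -0.36 (SE 0.14, unadjusted p = 0.0409), and the limma p after Benjamini-Hochberg adjustment was 0.385. Unlike most of the other mature genes, Apod was not low in wild-type array 3. Its dim second probe, at chr16:31296299-31296358, was also lower without overlap, at -2.15, -2.60 and -2.30 in knockout arrays 1 to 3, against -1.98, -1.90 and -1.60 in wild-type arrays 1 to 3, a difference of -0.52 (SE 0.15). On the slide that holds both genotypes the difference of the brighter probe, at chr16:31297206-31297265, was -0.15, with a sign fixed by the lack of overlap. Apod is also made by fibroblasts of the meninges and by vessel-associated cells, and 10 of 10 meningeal and 10 of 10 pericyte markers had a difference below 0, against 53.7% of all genes. So had 10 of 10 choroid plexus, 9 of 9 striatum and 6 of 6 red blood cell markers. Other lists were mixed, with 5 of 10 endothelium, 5 of 10 astrocyte, 3 of 10 microglia and 6 of 10 neuron markers below 0. Wild-type array 3 was the highest for 10 of 10 meningeal markers and knockout array 1 the lowest for 9. Both Apod probes were lowest in knockout array 2, and only the dim one was highest in wild-type array 3. The summed level of the meningeal markers, in units of the 75th percentile, ranged from 8.30 to 11.5 in knockout arrays, against 10.3 to 17.8 in wild-type arrays. That of the pericyte markers was 6.26 to 7.28 in knockout arrays and 7.68 to 8.67 in wild-type arrays, without overlap. Both sums are weighted to the brightest probes of their lists. The part of these cells in the Apod values was not tested. The first 30 bases of both Apod probes, on the minus strand of chromosome 16, are given because they read separate stretches of the gene and both separated the groups.
Apod brighter probe: aaacccaacctgaccccacactgtcacctt
Apod dim probe: tatcaccccacaagttcacttagttcctgt

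Gsn, gelsolin, which severs actin filaments and is abundant in oligodendrocytes, differed by -0.36 (SE 0.18, unadjusted p = 0.0951). Its levels were 2.18, 1.88 and 2.16 in knockout arrays 1 to 3, against 2.56, 2.69 and 2.06 in wild-type arrays 1 to 3, so that only wild-type array 3 lay among the knockout values. Its second probe gave -0.33 (SE 0.18), but these probes are not separate readings. They lie 16 bases apart at chr2:35163342-35163401 and chr2:35163358-35163417 and share 44 of their 60 bases, as the capitals in the first 30 bases of each show for the start of the overlap.
Gsn brighter probe: gggtctttacagaattGCTTCAAATGTCTG
Gsn other probe: GCTTCAAATGTCTGtactttggaaatgaaa

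The other mature genes had smaller differences. Trf, transferrin, which oligodendrocytes secrete and use for iron supply, differed by -0.13 (SE 0.26). Car2, carbonic anhydrase 2, differed by -0.10 (SE 0.19), and Qdpr, which recycles tetrahydrobiopterin, by -0.11 (SE 0.25). Gpr37, a receptor of maturing oligodendrocytes, differed by -0.15 (SE 0.34), and Plekhb1, a membrane protein with a pleckstrin homology domain, by -0.10 (SE 0.30). Hapln2, a link protein of the node of Ranvier, differed by -0.09 (SE 0.31), and Ppp1r14a, an inhibitor of myosin phosphatase, by -0.13 (SE 0.36). All 7 had wild-type array 2 as their highest array and knockout array 2 or wild-type array 3 as their lowest. The differences of these genes were smaller than the SD within their groups (0.27 to 0.53).

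**Figure D4:**
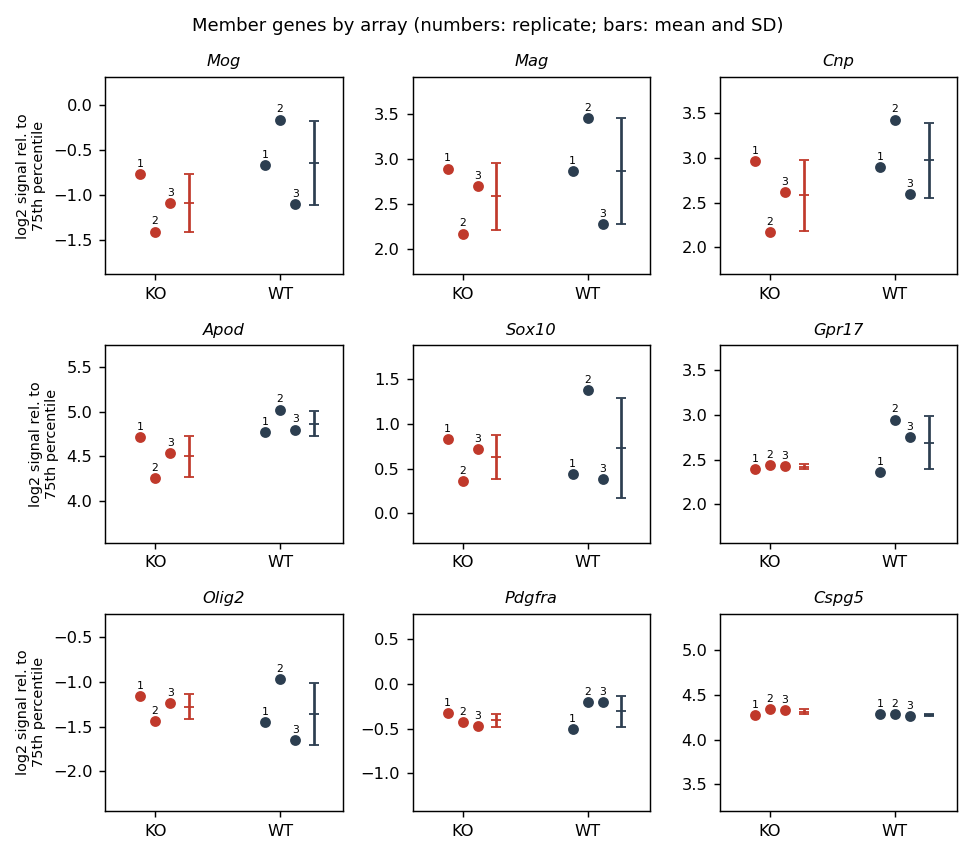
Levels of single members on the log2 scale, with the 75th percentile of each array at 0 (one panel each, axes of equal span), with knockout arrays on the left and wild-type arrays on the right, the replicate number beside each point, and bars for the mean and SD. Of the 9 genes shown, only Apod has groups that do not overlap, and Cspg5 spans only 0.07 over the 6 arrays.

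The 3 genes of newly formed oligodendrocytes differed among themselves. Enpp6, a choline-specific phosphodiesterase that marks cells about to myelinate, had the widest range of all members, 1.85. It read -2.66, -3.54 and -2.91 in knockout arrays 1 to 3, against -2.27, -1.69 and -3.34 in wild-type arrays 1 to 3, a difference of -0.60 (SE 0.45, 95% interval -1.72 to 0.51). Its 3 probes differed by -0.60, -0.58 and -0.36. Bcas1, a marker of early myelinating cells, read 2.86, 2.26 and 2.65 in knockout arrays 1 to 3, against 2.76, 3.50 and 2.31 in wild-type arrays 1 to 3, which is the order of the mature genes. Gpr17, a receptor of the premyelinating stage that holds cells back from maturing, read 2.39, 2.44 and 2.43 in knockout arrays 1 to 3, against 2.36, 2.95 and 2.75 in wild-type arrays 1 to 3. It was not low in knockout array 2 or in wild-type array 3, and the knockout arrays lay within 0.05 of each other. Its difference was -0.27 (SE 0.15), and the limma p adjusted by Benjamini-Hochberg was 0.505.

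Of the lineage factors, Sox10, Olig1 and Olig2 were highest and lowest in the same arrays as most mature genes, and Nkx2-2 was lowest in another. Sox10, needed at every step from precursor to myelin, read 0.83, 0.36 and 0.72 in knockout arrays 1 to 3, against 0.43, 1.37 and 0.38 in wild-type arrays 1 to 3. Olig1, which promotes maturation, read 2.13, 1.68 and 1.88 in knockout arrays 1 to 3, against 1.84, 2.28 and 1.81 in wild-type arrays 1 to 3. Both factors were highest in wild-type array 2 and lowest in knockout array 2. Olig2, which specifies the lineage, read -1.16, -1.44 and -1.24 in knockout arrays 1 to 3, against -1.45, -0.97 and -1.65 in wild-type arrays 1 to 3, and was the only factor with a difference above 0 (0.08, SE 0.19). Nkx2-2, a repressor that times differentiation, read -2.71, -3.03 and -2.84 in knockout arrays 1 to 3, against -3.08, -2.23 and -2.84 in wild-type arrays 1 to 3. Its brighter probe gave -0.15 and its other probe 0.11, with groups that overlapped on both. The median difference of the 4 factors was -0.09.

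The genes of precursor cells varied less between the samples than most mature genes, and, apart from Cspg5, about as much as a typical gene. Pdgfra, the receptor for the growth factor that keeps precursors dividing, read -0.33, -0.43 and -0.47 in knockout arrays 1 to 3, against -0.50, -0.20 and -0.21 in wild-type arrays 1 to 3. Cspg4, the NG2 proteoglycan, which pericytes also carry, read -1.31, -1.23 and -1.42 in knockout arrays 1 to 3, against -1.35, -1.12 and -1.42 in wild-type arrays 1 to 3. Neither gene separated the groups, and the 95% interval of the difference was -0.36 to 0.15 for Pdgfra and -0.28 to 0.23 for Cspg4. Ptprz1, a receptor phosphatase of precursors and astrocytes, read 2.37, 2.63 and 2.59 in knockout arrays 1 to 3, against 2.29, 2.64 and 2.43 in wild-type arrays 1 to 3, a difference of 0.08 (SE 0.12). Cspg5, neuroglycan C, found in precursors and also in neurons and astrocytes, read 4.28, 4.34 and 4.33 in knockout arrays 1 to 3, against 4.28, 4.29 and 4.27 in wild-type arrays 1 to 3. Its range of 0.07 was the narrowest of all members, and its difference was 0.03 (95% interval -0.10 to 0.17).

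The mature and the precursor genes were also compared by their spread between arrays. The SD within a group, pooled over the genotypes, had a median of 0.40 over the 21 mature genes and 0.13 over the 4 precursor genes, with 0.13 over all genes. Ranked by that SD among all genes, the mature genes ran from the 39.7th percentile (Mbp) over the 67.9th (Apod) to the 97.4th (Ugt8a). The precursor genes ran from the 0.855th (Cspg5) to the 60.1th (Ptprz1), so the ranges overlapped. The median difference between genotypes was -0.27 over the mature genes, where 20 of 21 were below 0, and 0.01 over the precursor genes, where 2 of 4 were. The mature median minus the precursor median of an array was 0.05, -0.67 and -0.12 in knockout arrays 1 to 3, against 0.04, 0.32 and -0.44 in wild-type arrays 1 to 3. These overlap between the genotypes, and knockout array 1 and wild-type array 1 lay next to each other. Single arrays decided the mature median, which was 0.03 on the slide that holds both genotypes, 0.02 without wild-type array 2, -0.07 without knockout array 2, -0.42 without knockout array 1 and -0.51 without wild-type array 3. The precursor median stayed between -0.03 and 0.05 when any 1 array was left out.

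**Figure D5:**
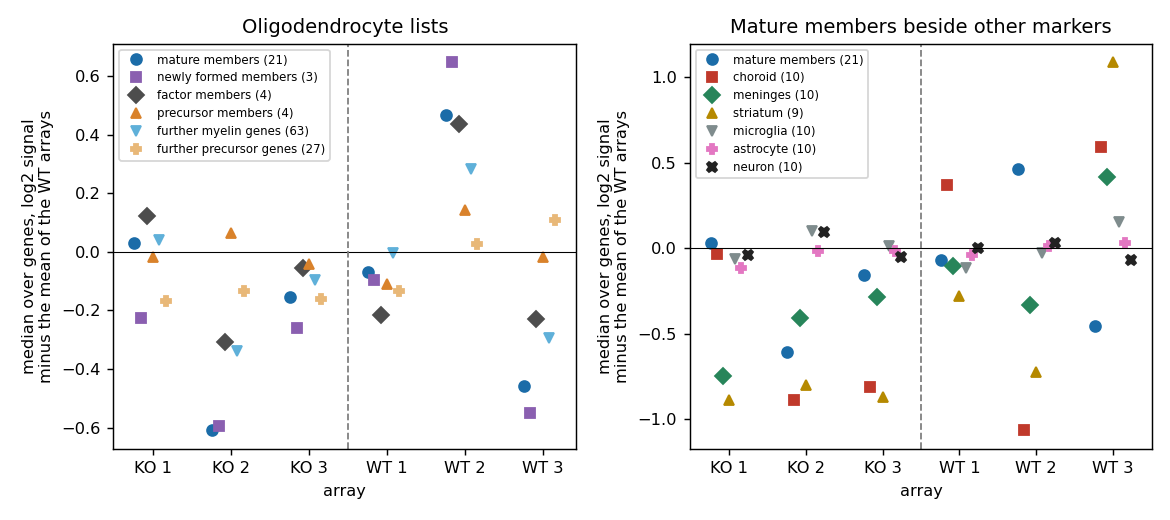
Median over the genes of a list on each array, in log2 signal minus the mean of the wild-type arrays, for the members by role and for markers of other cell types and regions; knockout arrays stand left of the dashed line and wild-type arrays right of it. The mature median runs from -0.61 in knockout array 2 to 0.47 in wild-type array 2, while the precursor median stays between -0.11 and 0.14.

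At the level of probes the picture was the same. Of the 48 member probes, 43 were highest in wild-type array 2 and 40 were lowest in knockout array 2 or wild-type array 3. The difference was below 0 for 41 of the 48, against 53.1% of all probes. Of the 13 members with several probes, 11 had differences of one sign, the exceptions being Mbp and Nkx2-2. No member probe passed limma with Benjamini-Hochberg adjustment over 30668 probes, where 0% of all probes passed. The 4 member probes with an unadjusted p under 0.05, which are those of Mbp and Apod already described, compare with 12% of all probes.

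Myelin genes that are not members had the same order of arrays. Of 68 further myelin and mature oligodendrocyte genes, 63 were tested, and their median was 0.04, -0.34 and -0.10 in knockout arrays 1 to 3, against 0.00, 0.28 and -0.29 in wild-type arrays 1 to 3. Opalin, a glycoprotein of mature oligodendrocytes, differed by -0.57 (SE 0.43). On the slide with both genotypes its difference was -0.06. Myrf, the factor that switches on myelin genes, was read by a dim probe and differed by 0.29 (SE 0.22). Of the 63 genes, 0 passed limma with Benjamini-Hochberg adjustment, 1 had an unadjusted p under 0.05, and the same gene, Stmn4 (-0.16, SE 0.06), was the only one whose groups did not overlap. These shares lay below the 12.4% and 19.9% of all genes.

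Further genes of precursors and their early descendants did not share that order. Their median was -0.17, -0.13 and -0.16 in knockout arrays 1 to 3, against -0.13, 0.03 and 0.11 in wild-type arrays 1 to 3. Of 27 tested, 21 had a difference below 0, the median was -0.14, and 5 were lower without overlap (18.5%, against 12.2% of all genes). Bmp4, a ligand made by cells leaving the precursor stage, differed by -0.54 (SE 0.11). Its unadjusted p was 0.00239 and its limma p after Benjamini-Hochberg adjustment 0.246. The factors Sox4 and Sox11, which are also high in young neurons, differed by -0.31 (SE 0.10) and -0.36 (SE 0.14). Ppfibp1, a liprin, differed by -0.34 (SE 0.10), and Ednrb, an endothelin receptor shared with astrocytes, by -0.22 (SE 0.08). On the slide that holds both genotypes, with 1 knockout array, Bmp4 differed by -0.73, Sox4 by -0.42, Sox11 by -0.35, Ppfibp1 by -0.33 and Ednrb by -0.28. The sign of these values was fixed by naming genes whose groups do not overlap, so they add no support. No gene of this list passed the adjusted threshold, and 6 had an unadjusted p under 0.05, all lower, against 9.35% of all genes called lower.

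Cholesterol, which oligodendrocytes make in large amounts for the sheath, is also made by astrocytes and other cells. Of 19 tested genes of its synthesis, 13 had a difference below 0, with a median of -0.06, and 7 were lower without overlap (36.8%, against 12.2% of all genes). Lss, which closes the sterol rings, differed by -0.33 (SE 0.07). Dhcr7, the reductase of a last step, differed by -0.24 (SE 0.06), and Mvd, a decarboxylase of the mevalonate route, by -0.26 (SE 0.07). Msmo1 and Idi1 differed by -0.15 and -0.09. On the slide with both genotypes the differences were -0.29 for Lss, -0.24 for Dhcr7 and -0.35 for Mvd, where the sign was again fixed by how the genes were named. Of the list, 0 passed limma with Benjamini-Hochberg adjustment and 3 had an unadjusted p under 0.05, all lower, against 9.35% of all genes called lower. Its array medians stayed between -0.10 and 0.02, so it did not follow the mature genes.

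Of 37 tested regulators of oligodendrocyte development, 17 had a difference below 0 and the median was 0.01. Smo, the transducer of hedgehog signals, differed by -0.22 (SE 0.07), and Nfia, a glial factor, by -0.28 (SE 0.10). Among the histone deacetylases that promote differentiation, Hdac1 differed by -0.12 (SE 0.06) and Hdac2 by 0.10 (SE 0.06). These 4 were the regulators whose groups did not overlap, 3 lower and 1 higher, and 0 of 37 passed limma with Benjamini-Hochberg adjustment while 2 had an unadjusted p under 0.05. Over all genes the shares were 19.9% without overlap and 12.4% at that unadjusted p, so the list lay below both.

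Markers of other cells and regions varied between the same samples. The 10 neuron markers, all above background on every array, had a summed level, in units of the 75th percentile, of 268 to 288 in knockout arrays and 265 to 282 in wild-type arrays, and the astrocyte sum was 162 to 188 in knockout arrays and 170 to 183 in wild-type arrays. Such sums are weighted to the brightest probes of a list and do not weigh its markers equally. The brightest was Aldoc for astrocytes (mean log2 level 6.89 in knockout and 6.88 in wild type). It was Ttr for choroid plexus (3.04 and 3.47) and Vtn for pericytes (1.72 and 1.91). Microglia summed to 36.7 to 41.4 in knockout and 35.9 to 41.6 in wild-type arrays, and endothelium to 28.9 to 32.7 in knockout and 26.8 to 31.2 in wild-type arrays. The sums of these 4 lists overlapped between the genotypes. Taken singly, 2 of 10 neuron markers, Nefl and Nefm, were higher without overlap (20%, against 7.73% of all genes). Of the 10 astrocyte markers 1, Aldh1l1, was higher without overlap (10%). Of the microglia and the endothelium markers, 0 of 10 each had groups without overlap. The 10 pericyte markers, Cspg4 among them, summed to 6.26 to 7.28 in knockout arrays and 7.68 to 8.67 in wild-type arrays. These sums did not overlap. Taken singly, 3 of the 10 were lower without overlap (30%), against 12.2% of all genes, and Cspg4 was not one of them. The 6 tested red blood cell markers summed to 1.70 to 24.4 in knockout arrays and 4.98 to 19.4 in wild-type arrays. The 9 tested striatum markers summed to 16.8 to 22.6 in knockout arrays, against 18.1 to 62.3 in wild-type arrays. The low end of 16.8 is knockout array 3, where Tac1 had no value, so that sum leaves Tac1 out and is not comparable with the others. The 10 markers of choroid plexus summed to 7.97 to 14.5 in knockout arrays, against 5.19 to 24.8 in wild-type arrays. The striatum median was -0.89, -0.80 and -0.87 in knockout arrays 1 to 3, against -0.28, -0.72 and 1.09 in wild-type arrays 1 to 3. Wild-type array 3, low in myelin genes, was thus the high one in striatum markers, and wild-type array 2, high in myelin genes, was not. Knockout array 2, the lowest in the mature median (-0.61), had a striatum median of -0.80. That is close to the -0.89 and -0.87 of knockout arrays 1 and 3, whose mature medians were 0.03 and -0.16. The choroid plexus median was -0.03, -0.89 and -0.81 in knockout arrays 1 to 3, against 0.37, -1.07 and 0.60 in wild-type arrays 1 to 3. For thalamus markers it was -0.14, -0.004 and -0.14 in the knockout, against 0.02, -0.31 and 0.16 in the wild type. For neocortex markers it was -0.01, 0.09 and -0.04 in the knockout, against 0.13, -0.09 and 0.03 in the wild type. Wild-type array 2 had the lowest median of each of these lists. The part of region in the myelin values was not tested. Of the Schwann cell markers, which would stand for peripheral nerve, Pmp2 was well above background on no array.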

How the data were processed

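Each sample was hybridised to a 1-colour Agilent array, and the deposited values are spot intensity readings on a linear scale. Agilent Feature Extraction 12.1.1.1, per the submitters' processing notes, had subtracted background and detrended these processed signals, per the file headers. Labelling started from 200 ng of RNA, per the labels. Very dim spots carry a surrogate value, which compresses their differences.

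Values were converted to log2 and centred by subtracting, for each array, the 75th percentile of its 43020 non-control spots. The 1377 control spots were left out, and so were 68 to 530 spots an array that carried a flag for non-uniformity or population outliers. Spots of a probe were averaged. A probe was kept if all arrays of knockout or all arrays of wild type had it well above background and both groups had 2 or more values, and the brightest stood for its gene. RefSeq accessions named 29510 probes, and 2030 had no gene name. Groups and replicate numbers came from the titles.

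The genotypes were compared with limma 3.58.1 in R 4.3.3 (two-sided) over all genes, with Benjamini-Hochberg adjustment at 0.05. The limma code was tested on simulated data. With 3 arrays a group, the number of arrays limits the precision. No exact test was used for single genes, since 3 arrays against 3 cannot give an exact p under 0.1. Probe positions are those of the files (mm9), and no mm9 annotation was used, so the exon or UTR under a probe is not given. The members and gene lists were chosen with earlier results of these data known. Named from each list of non-members were up to 5 genes of smallest unadjusted p whose groups did not overlap, and Opalin and Myrf in any case. A gene that this rule also names is not reported here. Alternatives covered background correction, normalization, filter, probe choice, slide, replicate block, eBayes setting and each array left out.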

Additional observations from a re-analysis of the deposited data

How the results depend on the processing

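No member and no member probe passed the adjusted threshold under any alternative run. Over all genes the count was 0 in each fit but the one without knockout replicate 1, which gave 59, so the counts with 1 array left out ran from 0 to 59. With 1 array left out, the median difference ran from -0.38 to 0.05 over the members, from -0.51 to 0.02 over mature genes and from -0.03 to 0.05 over precursor genes. Centring on the median moved the median of all genes by 0.12 to 0.10. The precursor median was then 0.12 and the mature median -0.16, which relative to that of all genes are 0.02 and -0.26, and 9 of 32 members changed sign. Taking slide as a fixed term, or using only the slide with both genotypes, turned 16 of 32, as did 16 without wild-type replicate 2 and 9 without knockout replicate 2. The other alternatives turned 0 to 2. Slide as a random term (correlation -0.07) put the mature median at -0.30. Ermn and Mbp read by another probe, chosen after seeing the data, left the mature median at -0.27, with 21 of 21 below 0. Deviations of same-numbered arrays correlated at -0.02, -0.13 and -0.12, and those of knockout array 2 and wild-type array 3 at 0.12. With 3 arrays a group, such values cannot decide whether the numbers pair the samples. A fit with the replicate block called 0 genes (smallest adjusted p 0.0915). It cannot change a difference in this balanced layout, so the mature median was -0.27 and the precursor median 0.01 by construction. All member probes were well above background, and 3 arrays a group, with knockout replicates 2 and 3 on a slide of their own, limit what these comparisons can show.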
